A study of Macaca mulatta with 6 samples.

Results

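Chromosomes 16, 19 and 20 of the rhesus macaque, Macaca mulatta, were described here as the gene-dense part of its autosomes, in a survey of CCGG sites that covered sperm and haploid embryonic stem cells (haploid ESC). Their members are all sites that the authors' deposited tables, 1 for each cell type, list on these 3 chromosomes, chosen by chromosome alone and not by any measured value. In haploid ESC they were 166909 of 1366982 listed sites (12.2%), with 61395 on chromosome 16, 50922 on chromosome 19 and 54592 on chromosome 20. In sperm they were 158043 of 1297392 (12.2%), with 57953, 48421 and 51669 in the same order. The haploid ESC are parthenogenetic according to the series title, so their genome came from an egg alone, and sperm carry the paternal genome alone. Each cell type was sequenced as 3 libraries, from digests labelled HpaII, BGT_MspI and MspI, so the 6 libraries held 1 of each kind and no replicate. The labels give neither the age nor the number of animals, nor how many haploid lines were used.

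A CCGG site can be unmodified, methylated (5mC) or hydroxymethylated (5hmC). HpaII cuts the unmodified site, MspI also cuts the modified ones, and the glucosyltransferase named by BGT protects 5hmC from MspI, so that the 3 digests differ where a site is modified. CpG-rich sequence, and with it CCGG, is concentrated in and around CpG islands, which mark the promoters of many genes. Macaque chromosome 16 corresponds to human chromosome 17, chromosome 20 to human chromosome 16, and chromosome 19 to human chromosome 19, which is known for its large clusters of KRAB zinc-finger genes, a family of repressors of transposable elements. The label "gene-dense" was checked against a RefSeq gene table of the assembly T2T-MMU8v2.0, used for gene numbers only. Chromosome 19 held 21.3 protein-coding genes per Mb, chromosome 16 held 13.4 and chromosome 20 held 10.5, which were the 3 highest values of the 20 autosomes. Chromosome 14 followed with 10.2 and chromosome 10 with 9.46.

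Each deposited table gives 3 distinct values per site, and the column read as the start of the second pair repeats the second value of the first pair in 100% of rows. These values are called here the first, the shared and the last signal, the first pair being the first and shared signals and the second pair the shared and last signals. No column could be tied to a digest, so a higher first signal says only that these libraries differed there, and no methylation level or kind of modification is read from it. The first-pair log2 ratio is the log2 of the shared over the first signal with a pseudocount of 1, so a negative value means a higher first signal. With no replicate there is no test of any difference below. Intervals are 95% intervals for counting sites only, and since neighbouring sites are not independent they are too narrow. The tables were normalized separately and are compared on the assumption, which nothing in them shows, that the columns stand in the same order in both.

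Listed sites were denser on the 3 chromosomes than on the other autosomes in both cell types. Together they held 710 sites per Mb in haploid ESC and 673 in sperm, against 459 and 438 on the other 17 autosomes, a ratio of 1.55 and 1.54. Chromosome 19 was the densest of the 20 autosomes, with 783 sites per Mb in haploid ESC and 745 in sperm. Chromosome 16 came next with 758 and 715. Chromosome 20 had 613 and 581 and stood behind chromosome 10, which had 741 and 701 and was the densest of the other autosomes. The sparsest autosome, chromosome 5, had 338 and 325. The order by sites thus followed the order by genes for chromosomes 19 and 16, while chromosome 10 had more sites than chromosome 20 and fewer genes per Mb. Chromosome 14, next to chromosome 20 by genes, had 489 sites per Mb in haploid ESC and 467 in sperm. It had rank 10 and rank 9 by sites. Leaving chromosome 20 out raised the density ratio to 1.67 in haploid ESC and 1.66 in sperm.

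The density was uneven along each chromosome, and both the typical and the densest 1 Mb bins held more sites than elsewhere. The median bin with any site held 724 in haploid ESC and 695 in sperm, against 388 and 369 on the other autosomes. The 3 chromosomes held 215 of the 2696 autosomal bins with any site (7.97%), but 34 of the 100 densest bins in haploid ESC and 33 in sperm. In haploid ESC, 53 of their bins (24.7%) held over 1000 sites, against 4.39% of the bins of the other autosomes. In sperm these shares were 22.3% and 3.51%. The median distance from a site to its nearest listed neighbour was 346 bp in haploid ESC and 361 bp in sperm, against 495 bp and 516 bp elsewhere. On chromosome 19 it was 310 bp and 321 bp. Sites lying over 2000 bp from any other, the isolated sites, made up 2.74% of chromosome 19 in haploid ESC and 13.3% of the other autosomes.

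The first signal was higher relative to the shared signal on the 3 chromosomes than elsewhere, and most of all on chromosome 19. On chromosome 19 the median first signal was 22.0 in haploid ESC and 19.3 in sperm, the highest of the 20 autosomes in each table. The median shared signal there was 17.3 and 12.8. On chromosome 16 the first signal was 20.5 in haploid ESC and 15.3 in sperm, and the shared signal 17.2 and 13.5. On chromosome 20 the first signal was 18.9 and 15.1 and the shared signal 17.4 and 14.7. Sites of the other autosomes had a median first signal of 18.0 in haploid ESC and 15.4 in sperm, and a shared signal of 18.0 and 16.8. In haploid ESC the difference thus lay mostly in the first signal, whose median on the 3 chromosomes was 1.13 times that elsewhere, while the shared signal was 0.961 times. In sperm it lay more in the shared signal, at 0.811 times, and the first signal was at 1.10 times. That last ratio rested on chromosome 19, since without it the first signal of chromosomes 16 and 20 in sperm was 0.985 times that of the other autosomes.

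As a ratio within each site, the difference held the same direction in both tables. The median first-pair log2 ratio on chromosome 19 was -0.41 in haploid ESC and -0.56 in sperm, the lowest of the 20 autosomes in each. Chromosome 16 was second lowest in each, at -0.28 and -0.19. Chromosome 20 had -0.14 and -0.04. The other autosomes together had -0.0017 in haploid ESC and 0.08 in sperm, with single chromosomes from -0.19 (chromosome 10) to 0.16 in haploid ESC and from -0.03 to 0.18 in sperm. Chromosome 20 therefore lay within the range of the other autosomes in haploid ESC and just below it in sperm, while chromosomes 16 and 19 lay below the range in both. Single sites spread much more widely than chromosomes differed. The middle 80% of sites of the 3 chromosomes ran from -2.09 to 1.54 in haploid ESC and from -2.63 to 1.66 in sperm. The same range elsewhere was from -1.83 to 1.71 and from -2.46 to 1.99.

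**Figure D1:**
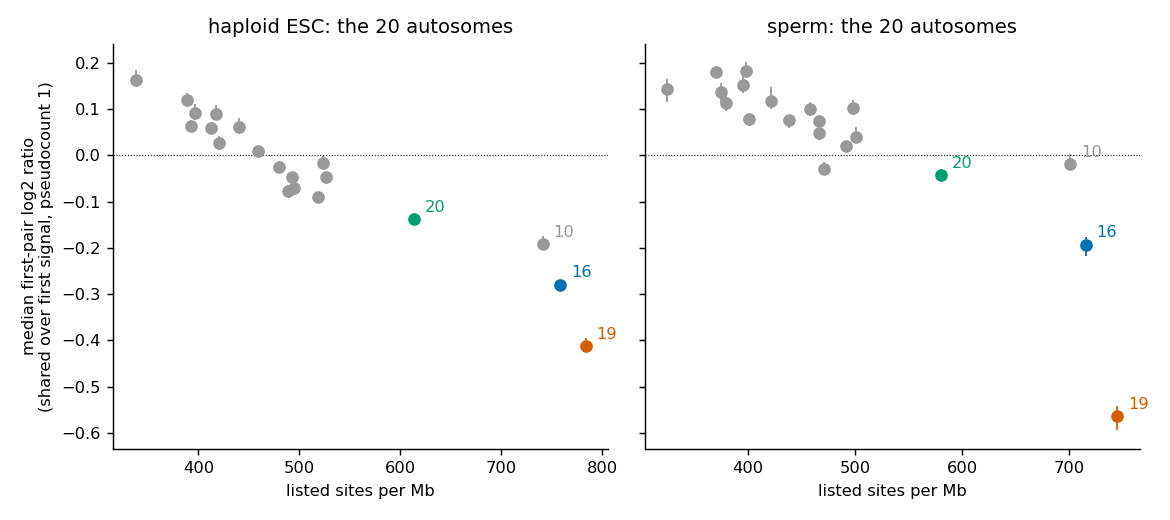
Each point is an autosome, placed by its listed sites per Mb (horizontal axis) and by the median first-pair log2 ratio of its sites (vertical axis, with the 95% order-statistic interval of the median). Chromosome 19 is the lowest point in both panels at -0.41 and -0.56, and chromosome 10, nearly as dense as chromosome 16, lies above it at -0.19 in haploid ESC and -0.02 in sperm.

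Chromosome 10 gave a comparison at nearly equal site density. Its 741 sites per Mb in haploid ESC came close to the 758 of chromosome 16, and its median first-pair log2 ratio was -0.19, less negative than the -0.28 of chromosome 16. In sperm chromosome 10 stood at -0.02 and chromosome 16 at -0.19. The intervals of these medians did not overlap in either table, but they count sites only, are too narrow and do not cover how chromosomes vary.

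The calls in the authors' deposited tables showed the same shift in their direction rather than in their number. Sites whose adjusted p lay below 0.05 are termed called. In haploid ESC, 68.0% of the sites of the 3 chromosomes were called in the first pair (Wilson interval 67.7% to 68.2%), near the 66.8% of all sites on the autosomes and X. In sperm 67.5% were called (67.3% to 67.7%), against 69.5% of all sites. Calls with the first signal higher covered 41.3% of the 3 chromosomes in haploid ESC, and 34.5% of all sites. In sperm they covered 40.1%, and 34.8% of all sites. Calls with the shared signal higher covered 26.7% in haploid ESC against 32.4% of all sites, and 27.4% in sperm against 34.7%.

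Chromosome 19 had the most unequal directions of calls of the 20 autosomes. According to the authors' deposited tables, the first signal in haploid ESC was higher at 45.3% of its sites (44.9% to 45.8%) and the shared signal at 24.3%. In sperm these shares were 47.7% (47.2% to 48.1%) and 21.7%. Chromosome 16 came second with 41.5% and 26.0% in haploid ESC and 38.4% and 28.1% in sperm. On chromosome 20 the first signal was higher at 37.3% and 34.9%, and the shared signal at 29.6% and 32.0%. The other autosomes together had the first signal higher at 33.7% in haploid ESC and 33.8% in sperm. The gap between the 3 chromosomes and the other autosomes was 7.62 percentage points in haploid ESC and 6.31 in sperm, and in sperm it was 2.94 without chromosome 19. The share of calls of either direction differed in opposite ways in the tables. The 3 chromosomes minus the other autosomes gave 1.30 points in haploid ESC (0.565 without chromosome 19) and -2.53 points in sperm, and at equal bin density 0.440 and -0.192 points.

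**Figure D2:**
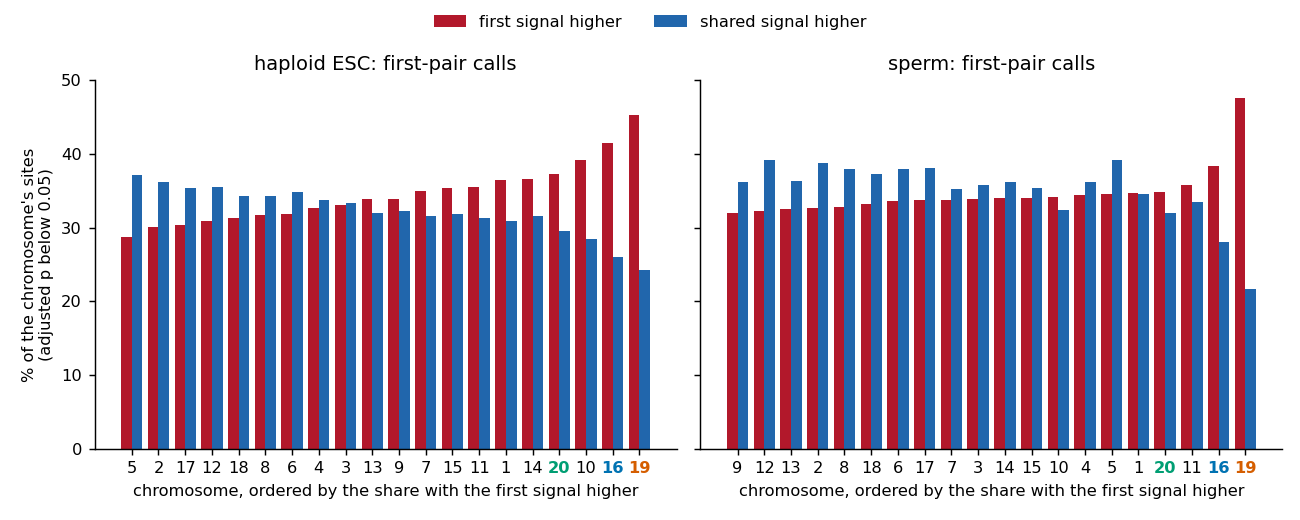
Bars give the percentage of each autosome's sites called at an adjusted p below 0.05 with the first signal higher (red) or the shared signal higher (blue), with chromosomes ordered by the red bars. Chromosomes 16 and 19 stand at the right end of both panels, where red exceeds blue by the most, up to 47.7% against 21.7% on chromosome 19 in sperm.

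Chromosome 16 was described in 79 bins of 1 Mb with at least 50 sites, out of 81. Its bins held a median of 746 sites in haploid ESC and 695 in sperm. The densest, from 78000001 to 79000000, held 1686 and 1637. The median first-pair log2 ratio was below 0 in 66 of the 79 bins in haploid ESC and in 56 in sperm, against 36.4% and 29.4% of the bins of the other autosomes. The most negative described bin in both tables ran from 34000001 to 35000000. It held 789 sites in haploid ESC and 753 in sperm, its ratio was -1.11 and -0.80, and its median first signal of 36.6 and 26.0 was the highest of the described bins of this chromosome in each table. It also had the highest share of first-pair calls in haploid ESC, 78.2%, of which 62.9 points had the first signal higher. In the densest bin, by contrast, the ratio was -0.28 in haploid ESC and 0.08 in sperm, so the highest density did not go with the most negative ratio.

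The sparsest described bins of chromosome 16 went the other way. The bins with the fewest sites were neighbours, from 38000001 to 39000000 with 256 in haploid ESC and 234 in sperm, and from 39000001 to 40000000 with 244 and 237. Their ratios were positive in both tables, 0.30 and 0.47 in the former and 0.26 and 0.48 in the latter. The latter bin had the lowest share of first-pair calls in haploid ESC (54.5%), and 76.0% of its sites were called in sperm, the largest difference between the tables on this chromosome, -21.4 points. The former had the highest share in sperm, 80.3%. The lowest share in sperm, 59.2%, was found from 70000001 to 71000000, where haploid ESC had 67.1%, the largest difference in the opposite direction. A second positive stretch from 66000001 to 69000000 reached 0.46 in haploid ESC and 0.61 in sperm in its last bin. Not every sparse bin was positive. In sperm the ratio was -0.46 from 51000001 to 52000000, with 321 sites, and -0.25 from 26000001 to 27000000, with 390 sites.

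Chromosome 19 was described in 55 bins, with 8 bins that held no site and 2 with fewer than 50. Its bins held a median of 947 sites in haploid ESC and 895 in sperm. The ratio was below 0 in 53 of the 55 bins in haploid ESC and in 52 in sperm, so almost the whole chromosome lay on the side of the higher first signal. The bin with the most sites, from 1000001 to 2000000, held 1672 in haploid ESC and 1617 in sperm, with a ratio of -0.49 and -0.53. The bin before it, from 1 to 1000000, had the highest share of first-pair calls in haploid ESC (76.3%) and 77.7% in sperm. The most negative bin in haploid ESC ran from 12000001 to 13000000, at -0.79, and its ratio in sperm was -1.12. The bins above 0 lay between 35000001 and 39000000, beyond the empty interval. From 35000001 to 36000000 the ratio was 0.06 in haploid ESC and 0.37 in sperm, from 37000001 to 38000000 it was -0.15 and 0.15, and from 38000001 to 39000000 it was 0.01 in each. The bin between them, from 36000001 to 37000000, was negative in both, at -0.46 and -0.19.

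Unlike chromosome 16 in its sparsest bins, chromosome 19 kept a negative ratio in its sparse bins. Its bin with the fewest sites, the last one from 64000001 to 65000000, held 174 sites in haploid ESC and 167 in sperm. Its ratio was -0.47 and -1.08, its median first signal 23.5 and 39.9, and its share of first-pair calls in sperm, 81.4%, was the highest of the described bins of this chromosome. The lowest share of first-pair calls in haploid ESC, 59.7%, lay from 43000001 to 44000000, where the ratio was -0.22 in haploid ESC and -0.88 in sperm. In sperm the lowest share was 62.1%, from 16000001 to 17000000. The bin from 61000001 to 62000000 had the largest excess of calls in haploid ESC over sperm, 71.7% against 66.9%. The largest excess in sperm lay from 22000001 to 23000000, with 78.1% against 66.6%, before the empty interval described further on.

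Chromosome 20 was described in 76 bins, with 12 empty and 1 of fewer than 50 sites. It was the most mixed of the 3. The ratio was below 0 in 47 of its 76 bins in haploid ESC and in 35 in sperm, the latter a minority of its bins. Sites were concentrated at its ends. The densest bin, from 86000001 to 87000000, held 1791 sites in haploid ESC and 1703 in sperm, with ratios of -0.27 and 0.02. At the other end, the bin from 1000001 to 2000000 held 1734 and 1678 sites, with the highest share of first-pair calls in haploid ESC, 75.5%. The most negative described bin in haploid ESC was from 28000001 to 29000000, with -0.57 there and -0.69 in sperm.

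Long sparse stretches of chromosome 20 had the shared signal higher. From 62000001 to 63000000, with 250 sites in haploid ESC and 237 in sperm, the ratio reached 0.67 and 0.91, the highest of the described bins of all 3 chromosomes. The bin with the fewest sites, from 58000001 to 59000000, held 206 and 192 sites and had ratios of 0.50 and 0.20. Next to it, from 59000001 to 60000000, 59.2% of sites were called in haploid ESC and 77.6% in sperm, the largest difference on this chromosome. In the opposite direction, from 27000001 to 28000000, 69.7% were called in haploid ESC and 63.5% in sperm. The lowest shares of calls were 58.4% in haploid ESC, from 7000001 to 8000000, and 58.7% in sperm, from 17000001 to 18000000. The highest share in sperm was 80.4%, from 30000001 to 31000000, a sparse bin of 225 sites whose median first signal was 33.0 in sperm and 20.9 in haploid ESC.

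**Figure D3:**
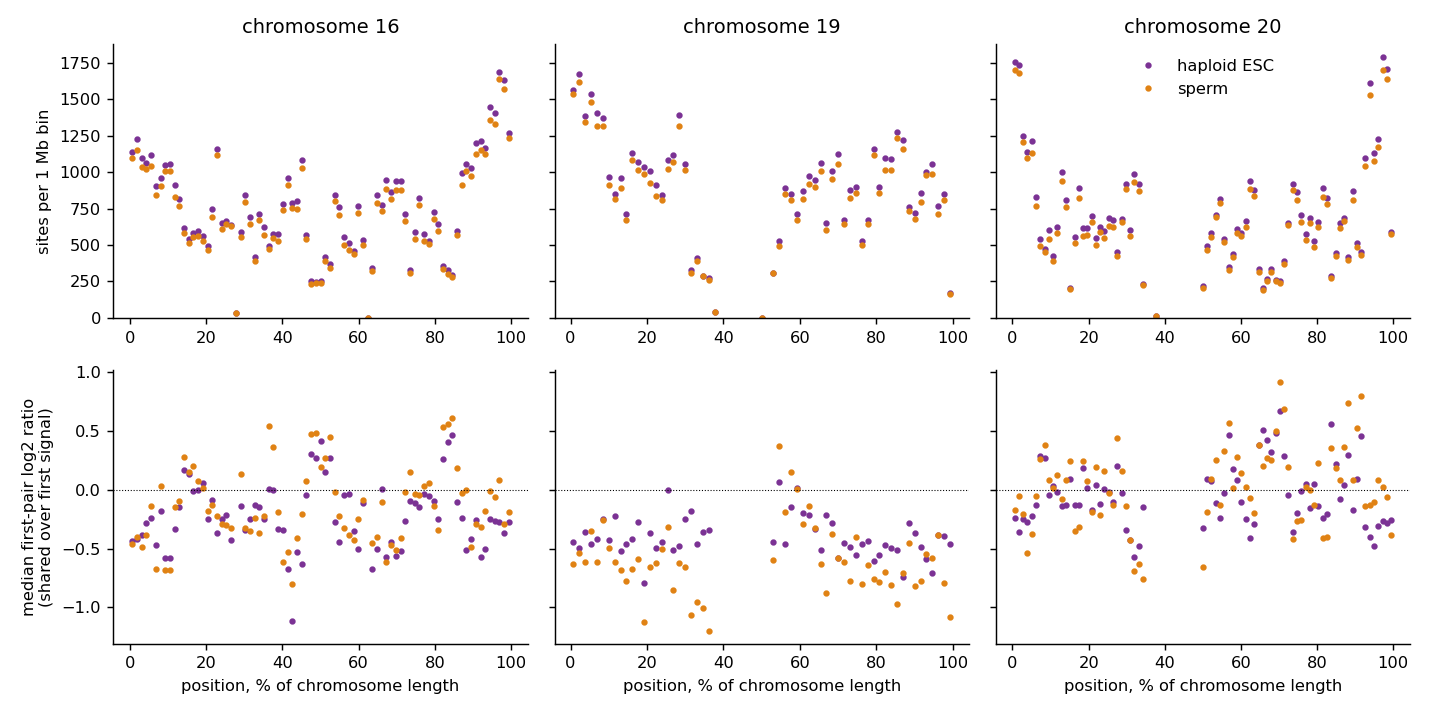
The upper panels show listed sites per 1 Mb bin and the lower panels the median first-pair log2 ratio of bins with at least 50 sites, by position in percent of chromosome length, in haploid ESC (purple) and sperm (orange). Chromosome 19 lies below 0 in 53 of 55 bins in haploid ESC and 52 in sperm, whereas chromosome 20 scatters around 0, with 47 and 35 of 76 bins below it.

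Bins with more sites tended to have a more negative ratio, and chromosome 19 departed from this. Across bins with at least 50 sites, Spearman's rho between sites per bin and the median first-pair log2 ratio in haploid ESC was -0.67 on chromosome 16 (79 bins) and -0.80 on chromosome 20 (76 bins). On chromosome 19 it was -0.32 (55 bins), closer to 0 than on any other of the 20 autosomes, the 17 others running from -0.83 to -0.56. In sperm rho was -0.49 on chromosome 16 and -0.53 on chromosome 20, but 0.20 on chromosome 19, outside the range of -0.65 to -0.03 of the 17 others. Bins of a chromosome share its libraries and are neighbours, so these coefficients describe the maps and carry no p.

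Part of the difference from the other autosomes went with bin density, and chromosome 19 kept the largest remainder of the 3. When sites of the other autosomes were weighted to the bin densities of the 3 chromosomes in 10 classes, the difference of the median ratio went from -0.27 to -0.091 in haploid ESC and from -0.34 to -0.22 in sperm. For chromosome 20 alone the difference at equal density was 0.0048 in haploid ESC and -0.035 in sperm. Chromosome 16 had -0.11 and -0.16. Chromosome 19 had -0.19 in haploid ESC, where the difference without weighting was -0.41, and -0.51 in sperm, where it was -0.64. The share of calls in the authors' deposited tables with the first signal higher was then 5.48 points higher on chromosome 19 than elsewhere in haploid ESC (11.6 without weighting) and 12.0 points higher in sperm (13.9 without weighting). On chromosome 20 the same comparison gave -0.489 and 0.184 points.

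The density classes showed where chromosome 19 stood apart. In bins of up to 400 sites, its median ratio was -0.38 in haploid ESC and -1.01 in sperm, against 0.26 and 0.28 on the other autosomes. These were 7 bins in haploid ESC and 8 in sperm. Except for the last bin of the chromosome, the sperm bins lay from 20000001 to 35000000, around the empty interval described below. The contrast in this class and the values beside that interval thus share many sites and are not separate observations. In bins of over 1000 and up to 1500 sites it was -0.44 and -0.62, against -0.27 and -0.06. It was lower than on the other autosomes in each of the 6 classes in both tables. The same held for chromosome 16, whose ratio was above that of chromosome 19 in each class. In the sparsest class chromosome 16 had 0.19 in haploid ESC and 0.23 in sperm. Chromosome 20 was at 0.35 and 0.32 in the sparsest class, above the other autosomes in both tables. The distance to the nearest site gave the same picture for isolated sites. Those over 2000 bp from any other had a median ratio of 0.03 on chromosome 19 in haploid ESC and 0.02 in sperm, against 0.65 and 0.96 on the other autosomes, 0.54 and 0.64 on chromosome 16, and 0.63 and 0.86 on chromosome 20.

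**Figure D4:**
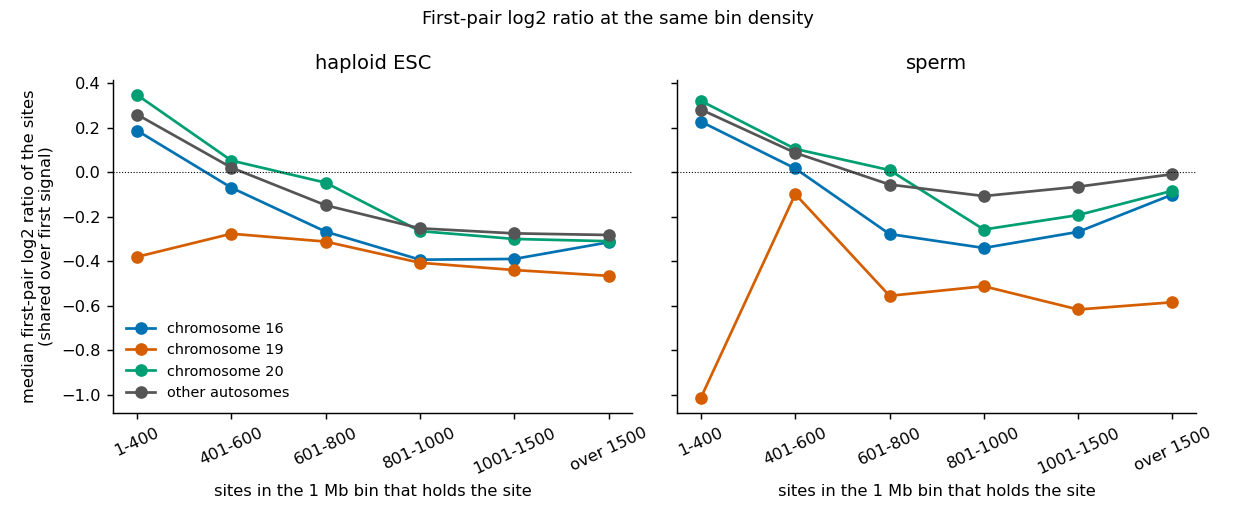
Points give the median first-pair log2 ratio of all sites that lie in 1 Mb bins of the density on the horizontal axis, for chromosomes 16, 19 and 20 and for the other autosomes. The line of chromosome 19 lies below that of the other autosomes at each density in both panels, by the most in sperm in bins of up to 400 sites (-1.01 against 0.28). Most of those sperm bins of chromosome 19 lie around its widest interval without sites. The line of chromosome 16 also lies below that of the other autosomes at each density, and above that of chromosome 19.

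On chromosome 19 the widest interval without a listed site, 8.68 Mb between 24235932 and 32911103, was flanked by sites with a high first signal in sperm. In the last 1 Mb before it, 195 sperm sites had a median first signal of 56.2 and a median shared signal of 14.1, a ratio of -1.74. In haploid ESC the 202 sites there had a first signal of 22.8 and a shared signal of 16.3, a ratio of -0.51. The pattern reached further: 1 to 2 Mb before the interval the sperm first signal was 30.0, and 2 to 3 Mb before it 31.1, while at 3 to 4 Mb it was 18.9. In haploid ESC the same steps had 18.8, 24.3 and 16.4. Beyond the interval only 2 sites lay in the nearest 1 Mb, and the 273 sperm sites 1 to 2 Mb away had a first signal of 29.6, against 21.0 in haploid ESC. From 2 to 8 Mb beyond it, sperm values were between 12.1 and 15.1.

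The shared signal did not show this step. Within 3 Mb before the interval sperm had values from 10.8 to 14.1 and haploid ESC values from 13.0 to 16.3, so the change in the ratio came with the first signal. The 2 Mb on either side of the interval had a median first signal of 34.5 in sperm, above the 24.2 that was the highest value beside the widest interval of any of the 17 other autosomes, on chromosome 6. Their median ratio minus that of the rest of the chromosome was -0.47, which lay within the range of the 17 other autosomes (-0.66 to 0.26), and -1.18 when 1 Mb on either side was taken. With 5 Mb on either side it was 0.19, because the sites beyond the interval then had a median ratio of 0.01. Chromosome 16 had a small bin from 22000001 to 23000000, at the edge of its own widest interval. There 32 sperm sites had a first signal of 89.5 and 33 haploid ESC sites 28.7. In the whole last 1 Mb before that interval the first signal was 25.5 at 348 sperm sites and 26.7 at 359 haploid ESC sites. The rest of chromosome 16, outside 1 Mb on either side of the interval, had medians of 15.3 in sperm and 20.5 in haploid ESC. On chromosome 20 the widest interval spanned 10.8 Mb, and its flanks differed among steps. The sperm sites 3 to 4 Mb before it had a first signal of 27.8, against 20.9 in haploid ESC. The 12 sperm sites in the last 1 Mb before it had 9.04, against 13.3 at 15 sites in haploid ESC, and the 542 sperm sites in the next 1 Mb after it had 18.1, against 18.5.

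**Figure D5:**
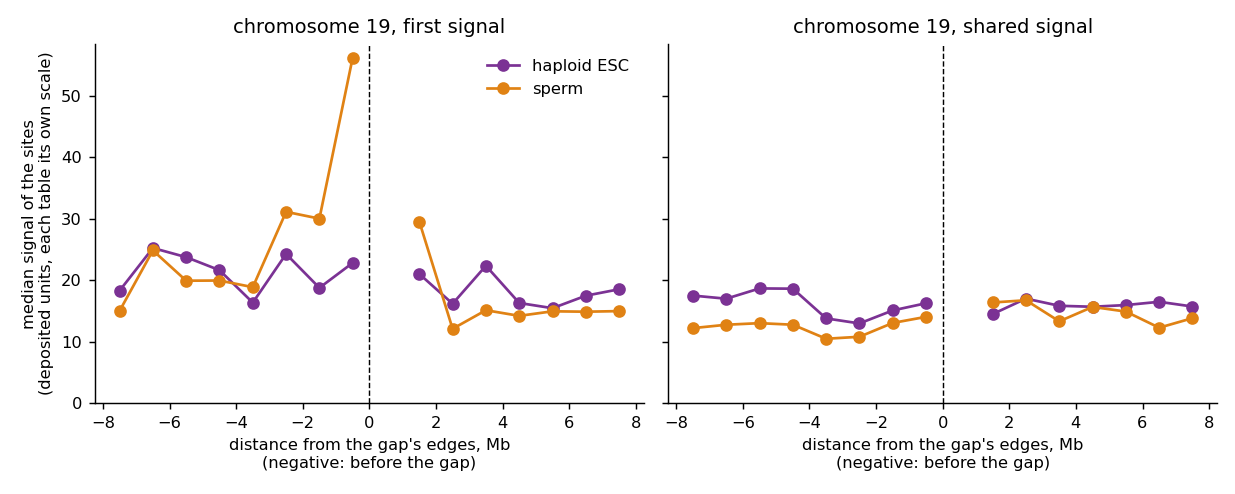
Median first signal (left) and shared signal (right) of chromosome 19 sites in 1 Mb steps from the edges of the widest interval without sites (dashed line), for steps with at least 50 sites. In sperm the first signal reaches 56.2 in the last step before the interval while haploid ESC stays at 22.8, and the shared signal shows no such step.

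Between the cell types, chromosome 19 also moved against the other autosomes. At sites listed in both tables, the median difference of the first-pair log2 ratio, haploid ESC minus sperm, was 0.17 on chromosome 19. It was -0.07 on chromosome 16, -0.10 on chromosome 20 and between -0.16 and -0.01 on the other 17, so chromosome 19 was the single autosome of the 20 with a positive value. The ratio was lower in sperm than in haploid ESC in 44 of its 55 bins (80.0%), against 25 of 79 on chromosome 16, 30 of 76 on chromosome 20 and 36.1% of the bins of the other autosomes. The median first signal was higher in sperm than in haploid ESC in 12 of the 55 bins (21.8%), against 30.5% of the bins of the other autosomes, 1 of 79 on chromosome 16 and 8 of 76 on chromosome 20.

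The 2 cell types mostly agreed in the direction of calls, and more so on the 3 chromosomes. Of all shared sites of the autosomes and X, 9.1% were called in opposite directions in the authors' deposited tables. Of the 153053 shared sites of the 3 chromosomes, 4.35% had the first signal higher in haploid ESC and the shared signal higher in sperm, and 3.44% the reverse. Among the 78124 of them called in both tables, 15.3% had opposite directions (15.0% to 15.5%), against 18.0% on the other autosomes, where single chromosomes ran from 16.7% to 20.4%. Chromosome 19 had the lowest share of all 20, 14.2%, followed by chromosome 16 with 15.5% and chromosome 20 with 16.1%. Such a share tends to be lower where both tables lean to the same direction, and it was not adjusted for that. The first signal was higher in both tables at 33.5% of the shared sites of chromosome 19, at 26.6% on chromosome 16 and at 23.0% on chromosome 20, against 17.6% to 23.2% on the other autosomes.

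Neighbouring sites in the same state formed stretches, defined as at least 3 shared sites in a row, each at most 1000 bp from the next. Stretches with the first signal higher in both tables numbered 1361 on chromosome 19, or 291 per 10000 shared sites, 1129 on chromosome 16 (201) and 827 on chromosome 20 (165). The other autosomes together had 132 per 10000, and the highest of them, chromosome 14, had 166, which is above chromosome 20. Stretches with the shared signal higher in both were rarer, 47.0 per 10000 shared sites on chromosome 19, 35.4 on chromosome 16 and 52.0 on chromosome 20, against 26.4 elsewhere. The highest of the other autosomes was chromosome 10 with 45.4, which is above chromosome 16. Both rates depend on site density by construction, since sites must lie close together to form a stretch.

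The longest stretches show the states at single places, and were picked after their values were seen. On chromosome 16, 27 consecutive sites from 25581528 to 25588294 had the first signal higher in both cell types, with medians of 118 and 32.3 for the first and shared signal in haploid ESC and 124 and 34.9 in sperm. On chromosome 19, 19 sites from 10296292 to 10301562 had medians of 108 and 43.6 in haploid ESC and 126 and 39.7 in sperm. On chromosome 20, 12 sites from 1987567 to 1991815 had 95.6 and 24.4 in haploid ESC and 140 and 22.5 in sperm. All 3 places had first signals several times the chromosome's median, and shared signals above it. The opposite state was found on chromosome 20 from 645422 to 647363, where 9 sites had medians of 6.64 and 35.5 in haploid ESC and 13.3 and 41.1 in sperm.

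Stretches that switched direction between the cell types were few and short. Those with the shared signal higher in haploid ESC and the first signal higher in sperm numbered 46 on chromosome 19, or 9.83 per 10000 shared sites, the highest rate of the 20 autosomes. Chromosome 16 had 17 (3.02) and chromosome 20 had 25 (5.0), and the other autosomes together had 4.30. Counted by site, chromosome 19 had no excess of this state. It covered 4.24% of the shared sites there and 4.30% on the other autosomes together. The rates of stretches that switched direction also depend on site density by construction. Among the longest on chromosome 19 was a stretch from 543228 to 544762, with 7 sites and a median first signal of 10.9 in haploid ESC and 136 in sperm, beside shared signals of 39.4 and 61.7. A further 7 sites from 18729477 to 18730328 had first signals of 18.3 and 153. On chromosome 16, 7 sites from 5464077 to 5465748 had first signals of 4.98 and 115. On chromosome 20, 6 sites from 86620606 to 86622055 had 10.4 and 182.

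In the reverse state, with the first signal higher in haploid ESC and the shared signal higher in sperm, there were 23 stretches on chromosome 16, 21 on chromosome 19 and 25 on chromosome 20. These are 4.09, 4.49 and 5.0 per 10000 shared sites, against 3.03 on the other autosomes together and 5.35 on chromosome 10. On chromosome 16, 5 sites from 1390223 to 1391330 had a median first signal of 116 in haploid ESC and 16.9 in sperm. On chromosome 19, 4 sites from 39902368 to 39903009 had 142 and 12.9. On chromosome 20, 4 sites from 48078265 to 48078897 had 86.9 and 21.1. In each of these stretches the first signal differed between the tables by more than the shared signal did. Positions are those of the deposited tables, whose build is not known, so no gene is named for them.

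The medians of the last and shared signals differed little on these chromosomes. The median last signal was 17.8 on chromosome 19 in haploid ESC and 13.1 in sperm, 17.6 and 13.8 on chromosome 16, and 17.9 and 15.0 on chromosome 20, each slightly above the shared signal of the same chromosome and table. The median log2 ratio of the last over the shared signal was 0.036 on the 3 chromosomes in haploid ESC and 0.027 in sperm, against 0.0029 and -0.0066 on the other autosomes. At equal bin density the difference from the other autosomes was -0.00033 and -0.000825. Chromosome 19 had the highest value of the 20 autosomes in each table, 0.049 and 0.040.

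Second-pair calls in the authors' deposited tables covered 11.5% of the sites of the 3 chromosomes in haploid ESC, against 11.1% of all sites, and 6.97% in sperm, against 7.72%. The difference from the other autosomes in haploid ESC was 0.435 points, and -0.129 at equal bin density. In sperm it was -1.01 points, and -0.499 with calls at an adjusted value below 0.01. The directions were more unequal on each of the 3 chromosomes than on the other autosomes together, and so they were on chromosome 10. In haploid ESC the last signal was higher at 7.83% of the sites of chromosome 19 and the shared signal at 3.85%, while the other autosomes had 6.21% and 4.87%. In sperm these shares were 4.51% and 2.38%, against 3.96% and 4.02%. Chromosomes 16, 20 and 10 had 7.22% and 4.39%, 7.04% and 4.22%, and 7.16% and 4.31% in haploid ESC. In sperm they had 4.06% and 2.68%, 4.37% and 2.93%, and 4.42% and 3.01%. Among density classes of chromosome 19, bins of over 1500 sites had the highest share of second-pair calls, 15.5% in haploid ESC and 9.45% in sperm. In sperm the next highest class was that of over 400 and up to 600 sites, with 8.05%. Across bins of at least 50 sites in sperm, Spearman's rho between sites per bin and this share was 0.21 on chromosome 19, 0.076 on chromosome 16 and -0.077 on chromosome 20. All 3 lay above the range of the 17 others, -0.60 to -0.14. In haploid ESC rho was 0.542, 0.336 and 0.330 in the same order. Only chromosome 19 then lay outside the range of the 17 others, -0.069 to 0.342.

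The 3 chromosomes differed little from the rest in which sites each table listed. In haploid ESC, 8.30% of their sites (8.17% to 8.44%) were not listed in the sperm table, and 7.67% were not on the other autosomes, whose highest value was 8.03% on chromosome 7. Chromosomes 16, 20 and 19, with 8.40%, 8.34% and 8.14%, were the 3 highest of the 20 autosomes. In sperm, 3.16% (3.07% to 3.24%) were not listed in haploid ESC, against 3.11%, and the difference of 0.0497 points turned to -0.0536 without chromosome 19. Chromosome 19 had 3.39% and chromosome 16 had 2.96%. In single bins of at least 50 sites of the 3 chromosomes, the share missing in sperm ran from 4.19% to 12.2%.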

How the data were processed

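HMST-Seq libraries of 6 digests, 1 per digest and cell type, stand behind 1 deposited table per cell type. The tables have 10 columns and no header. Columns 3, 4 and 8 were read as the signal the authors deposited for the 3 libraries of that cell type, and column 7 as a copy of column 4. The deposited p-value of the first pair (adjusted, column 6) was used as it stands. The adjusted value of the second pair, also deposited by the authors, was treated as a score because it reaches 1.03. Normalization of the signal, aligner, filters and test were among the items not given in the sources used here. Per the submitters' processing notes the build is hg19, but the tables name chromosomes 1 to 20 and X, so their build is not known and no gene or sequence is given. Read depth per library is unknown, and no interval here covers it.

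Rows on chromosomes 1 to 20 and X were kept (1366973 in haploid ESC and 1297380 in sperm), and no column of per-sample values was left out. Sites per Mb are sites over the number of 1 Mb bins up to the last listed site, empty bins included. Medians, shares with Wilson intervals, and order-statistic intervals were computed with Python 3.11.15, numpy 2.4.6, pandas 2.3.3 and scipy 1.17.1, and figures with matplotlib 3.10.9. Calls had an adjusted p below 0.05. The functions were tested on simulated data with known differences. Comparisons were made between the 3 chromosomes and the other 17 autosomes and, at sites joined on chromosome and position, between the cell types, without tests. The bins named by rule were, per chromosome, those with the most and fewest sites, the highest and lowest share of first-pair calls in each cell type and the largest difference of that share, among bins of at least 50 sites. Other bins, stretches and the interval without sites were picked with their values in view. The members and lists were chosen with earlier results of these data known. Alternatives covered bin size, threshold, pseudocount, summary, sites used, weighting and each chromosome left out.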

Additional observations from a re-analysis of the deposited data

Results flagged for a closer look

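Differences from the other autosomes that had opposite signs in the 2 cell types, with 95% counting intervals that did not overlap, were found for chromosomes 16, 19 and 20. The difference was not tested for any of them. The share of first-pair calls on chromosome 16 minus that on the other autosomes was 0.848 percentage points in haploid ESC and -3.55 in sperm. On chromosome 19 the same difference was 2.99 points in haploid ESC and -0.616 in sperm. Second-pair calls behaved likewise: the difference on chromosome 16 was 0.532 points in haploid ESC and -1.24 in sperm, and on chromosome 19 it was 0.597 and -1.09. These signs were not particular to the 3 chromosomes, since chromosome 10 had them too. Its first-pair share was 67.7% in haploid ESC and 66.6% in sperm, against 66.7% and 70.0% on the other autosomes. Its second-pair share was 11.5% and 7.43%, against 11.1% and 7.99%. The first-pair share of chromosome 16 in haploid ESC, 67.5%, lay within the range of single other autosomes, 65.6% to 68.2%. The median first signal of chromosome 20 minus that of the other autosomes was 0.858 in haploid ESC and -0.342 in sperm, in the units of each table. Its medians, 18.9 and 15.1, lay within the ranges of single other autosomes, 16.6 to 20.1 and 15.0 to 16.8. Chromosome 10 had the same signs, with 20.1 and 15.1 against 18.0 and 15.4 on the other autosomes.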

How the results depend on the processing

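Of 210 alternative values of 21 comparisons, 205 kept their direction and 95 moved by less than the counting interval, which is narrow with this many sites. Each comparison is of the 3 chromosomes with the other autosomes, haploid ESC before sperm, and the cause of each change was not tested. The density ratio (1.55 and 1.54) was 1.53 and 1.52 with 2 Mb bins, 1.69 and 1.68 over bins with at least 10 sites, 1.52 and 1.51 without 2 Mb at chromosome ends, 1.58 and 1.57 without chromosome 10, 1.72 and 1.71 without 5 Mb beside the widest interval, and 1.54 in haploid ESC at sites listed in both tables. First-pair call differences were 1.81 and -2.85 points at a threshold of 0.01, 2.13 and -3.17 at 0.001, 0.440 and -0.192 at equal bin density, 0.923 and -3.02 without chromosome ends, and 1.58 in haploid ESC at shared sites. Second-pair call differences in sperm (-1.01) were -0.499 at 0.01, -0.194 at 0.001, -0.820 at equal density and -1.18 without ends, and in haploid ESC the sign turned to -0.129 at equal density. The difference in calls with the first signal higher was 7.18 and 5.33 points at 0.01, 6.69 and 4.19 at 0.001, 2.40 and 5.07 at equal density and 8.04 and 6.62 with chromosomes weighted equally, and in haploid ESC 8.08 at shared sites and 7.98 without chromosome 10. The first-pair log2 ratio difference (-0.27 and -0.34) was -0.29 and -0.37 with a pseudocount of 0, -0.21 and -0.25 with 5, -0.24 and -0.30 as a mean, -0.29 and -0.35 without sites low in both values, -0.091 and -0.22 at equal density, and -0.28 in haploid ESC without chromosome 10. The second-pair log2 ratio difference (0.033 in each) turned to -0.00033 and -0.000825 at equal density, was 0.024 in each with a pseudocount of 5 and 0.029 in haploid ESC without ends, and in sperm 0.036 with a pseudocount of 0 and 0.038 without low sites. The first-signal level ratio was 1.19 and 1.01 as a mean, 1.14 and 1.05 at shared sites, 1.12 and 1.06 without ends, 1.03 and 1.04 at equal density, and 1.14 in haploid ESC without chromosome 10. The shared-signal ratio was 0.949 and 0.799 without ends, 0.985 and 0.875 at equal density, and 0.955 as a mean in haploid ESC. The last-signal ratio was 0.963 and 0.820 without ends, 0.983 as a mean in haploid ESC, and in sperm 0.839 at shared sites and 0.877 at equal density. The difference in sites missing in sperm was 0.778 points at equal density.

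Leaving out chromosome 16, 19 or 20 in turn gave density ratios of 1.49 to 1.67 and 1.47 to 1.66, first-pair call differences of 0.565 to 1.82 and -3.38 to -1.94 points, and second-pair ones of 0.364 to 0.562 and -1.17 to -0.881. Calls with the first signal higher differed by 5.86 to 9.55 and 2.94 to 8.83 points, the low ends without chromosome 19. The log2 ratio differences ran from -0.33 to -0.21 and -0.45 to -0.21 for the first pair and from 0.025 to 0.038 and 0.028 to 0.037 for the second. Level ratios ran from 1.09 to 1.17 and 0.985 to 1.13 for the first signal, 0.957 to 0.964 and 0.791 to 0.836 for the shared signal, and 0.972 to 0.981 and 0.810 to 0.856 for the last signal. The missing shares differed by 0.573 to 0.704 and by -0.0536 to 0.163 points. Opposite calls at shared sites differed by -3.19 to -2.27 points (-2.79 with all 3), and by -2.97 and -2.74 at thresholds of 0.01 and 0.001. Beside the widest interval of chromosome 19, the ratio minus the rest of the chromosome was -0.47 in sperm over 2 Mb and 0.19 over 5 Mb, and in haploid ESC 0.034 over 2 Mb and -0.099 over 1 Mb. The comparisons without chromosome 10, beside the widest interval, of calls with the first signal higher and of opposite calls were chosen after seeing the data. No paired analysis was possible because no test was run and each digest had 1 library.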
